A study of Mus musculus with 18 samples.

Results

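The Asb genes encode ankyrin repeat and SOCS box proteins, the adaptors that bring substrates to one class of ubiquitin ligase. The 10 members described here (Asb2, Asb4, Asb5, Asb8, Asb10, Asb11, Asb12, Asb14, Asb15 and Asb18) were taken as a named list of symbols, out of 18 Asb genes in the GENCODE annotation and 41388 genes counted. The list had no threshold. It was chosen by measured values of this series, but which contrast or level was used is not recorded. Levels, fold changes and adjusted p-values of the members therefore describe them and are no independent evidence about the family, and the other 8 Asb genes were set beside them. All 18 genes were matched to one Ensembl identifier each.

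The study compared mouse leg muscle with and without Site-1 Protease, the product of Mbtps1, a Golgi protease that activates membrane-bound transcription factors. Knockout mice carried floxed Site-1 Protease alleles with HSACre, in which human skeletal actin regulatory DNA limits Cre to muscle fibres, so other cells of the muscle kept the gene. Control mice carried the same floxed alleles without Cre, so no library showed the effect of Cre alone. All mice were 12 weeks old, on chow and fasted for 4 h. Total RNA depleted of ribosomal RNA was sequenced from soleus (4 knockout and 5 control libraries) and gastrocnemius (4 knockout and 5 control libraries). The series text gives 4 samples per group, against the 5 titles labelled control in each muscle, and the labels do not say that each library came from a separate mouse. If libraries of one group shared an animal, part or all of their spread would be technical, and the p-values would be too small. The libraries are named below by the numbers in their titles.

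The total count per library was between 38992432 and 78219534. Mitochondrial genes took 9.43 to 12.66% of counts in soleus and 7.4 to 8.87% in gastrocnemius. Mbtps1 was not lower in the knockout libraries. It measured 34.5 to 42.6 CPM (the count scaled to a common library size) in gastrocnemius knockout libraries and 29.4 to 34.8 CPM in gastrocnemius control libraries (log2 fold change 0.25, SE 0.08, edgeR adjusted p = 0.0945). In soleus it measured 31.3 to 36.4 CPM in knockout libraries and 30.9 to 34.4 CPM in control libraries (log2 fold change 0.10, SE 0.07, edgeR adjusted p = 0.754). The counts cover the whole gene and do not resolve the loss of single exons, so they do not check the genotype labels. Of the 8 slow fibre genes listed, 8 were higher in soleus control than in gastrocnemius control libraries, as were 27.4% of all tested genes. Of 8 fast fibre genes 6 were lower, as were 21.9% of all tested genes, Myh2 was higher and Myh1 did not pass.

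In an Asb protein the ankyrin repeats bind the substrate, and the SOCS box binds Elongin B and Elongin C, which dock onto the scaffold Cullin-5 with its RING partner Rnf7. The complex transfers ubiquitin to the bound protein and so marks it for the proteasome. Several Asb genes are transcribed mainly in striated muscle. Asb2 is the member best studied there: raising it in mouse muscle reduces muscle mass, and its known targets are the filamins and desmin. Mouse Asb4 is known from developing vessels and placenta, Asb5 from the growth of collateral arteries in rabbit, and Asb11 from Notch signalling in zebrafish. Asb15 has been studied in the differentiation of mouse muscle cells, human ASB8 has been reported to act on the kinase TBK1, and human ASB10 was proposed as a glaucoma gene.

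Of the 10 members, 5 were lower in knockout gastrocnemius at an edgeR adjusted p under 0.05 (Asb4, Asb5, Asb10, Asb14 and Asb18), as were 2.01% of all tested genes. The bases upstream of their starts are shown because these 5 are the members described in most detail, and nothing about the family is read from that count. The sequences were read from RefSeq on GRCm38.p6 (10 of 10 members matched), 5′ to 3′ on the gene's strand, and end at the base before the counted gene. The Asb4 window lies at chr6:5383136-5383385 (plus strand), the Asb5 window at chr8:54550081-54550330 (plus strand) and the Asb10 window at chr5:24540979-24541228 (minus strand). The Asb14 window, of 193 bases, lies at chr14:26894364-26894556 (plus strand), and the Asb18 window at chr1:90014667-90014916 (minus strand). Capitals mark matches to the muscle motifs searched.
Asb4: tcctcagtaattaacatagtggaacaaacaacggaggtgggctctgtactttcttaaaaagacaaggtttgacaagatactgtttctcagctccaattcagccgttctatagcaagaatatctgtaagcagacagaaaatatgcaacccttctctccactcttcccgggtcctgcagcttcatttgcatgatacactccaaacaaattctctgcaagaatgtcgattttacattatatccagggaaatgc
Asb5: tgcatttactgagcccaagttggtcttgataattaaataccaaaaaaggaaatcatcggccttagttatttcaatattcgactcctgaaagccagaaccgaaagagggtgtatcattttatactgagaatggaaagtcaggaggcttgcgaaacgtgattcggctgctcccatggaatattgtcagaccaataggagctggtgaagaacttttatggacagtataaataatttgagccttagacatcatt
Asb10: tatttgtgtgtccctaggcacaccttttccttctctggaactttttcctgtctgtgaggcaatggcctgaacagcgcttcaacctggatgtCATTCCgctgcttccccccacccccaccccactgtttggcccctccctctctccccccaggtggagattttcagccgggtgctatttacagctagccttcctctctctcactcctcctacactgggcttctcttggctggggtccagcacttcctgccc
Asb14: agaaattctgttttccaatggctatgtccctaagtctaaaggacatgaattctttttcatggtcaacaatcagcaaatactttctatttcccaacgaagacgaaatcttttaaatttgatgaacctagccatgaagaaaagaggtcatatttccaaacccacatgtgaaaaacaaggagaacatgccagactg
Asb18: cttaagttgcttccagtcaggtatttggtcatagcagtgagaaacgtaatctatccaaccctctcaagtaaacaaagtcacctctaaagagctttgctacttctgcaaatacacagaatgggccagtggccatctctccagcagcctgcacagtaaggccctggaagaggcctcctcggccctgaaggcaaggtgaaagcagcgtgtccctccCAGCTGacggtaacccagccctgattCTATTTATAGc
The motifs were searched on both strands: the myogenic E-box CAGCTG, the MEF2 site (CTA and TAG with any 4 bases between them), the MCAT site CATTCC, the MEF3 site TCAGGTT, the sterol response element TCACNCCAC and the endoplasmic reticulum stress response element ERSE. Asb18 held CAGCTG at positions -37 to -32 and CTATTTATAG at -11 to -2, counted back from the start. Asb10 held CATTCC at -159 to -154. Among the 5 members that did not pass the test in knockout gastrocnemius, Asb12 held CTAAAAATAG at -48 to -39, and the other 4 held none of the motifs. Asb4, Asb5 and Asb14 held none either. For each member only the RefSeq start nearest the start of the counted gene was searched. Asb2, Asb4, Asb5 and Asb8 had more than 1 start listed, and their other starts were not searched. Of 32851 RefSeq windows, 13% held CAGCTG, 3.2% the MEF2 site, 12.6% CATTCC, 3.49% TCAGGTT, 1.05% TCACNCCAC and 0.113% ERSE; the 10 members held 1, 2, 1, 0, 0 and 0 of these. A match describes letters in the window and not a bound factor.

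The members spanned a wide range of levels. Between genes, levels were compared as CPM per kilobase of exon. In soleus control libraries Asb2 was the highest of the 18 at a mean of 104 CPM per kb, and Asb5 followed at 58.8. Asb11 lay at 22.1 CPM per kb, Asb16, not among the 10 members, at 21.8, Asb10 and Asb8 at 21.4 each, Asb14 at 19.4 and Asb15 at 17.4. The means of Asb11, Asb16, Asb10 and Asb8 did not differ beyond their spread between libraries. Asb12 followed at 8.93 and Asb18 at 8.07 CPM per kb. Asb4, at 1.28 CPM per kb, was below Asb1 and Asb7, which are outside the list, and within the spread of Asb6.

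The order was not the same in gastrocnemius control libraries. Asb2 again led, at 210 CPM per kb, ahead of Asb5 at 78.6, Asb16 at 41.7 and Asb10 at 34.9. Asb8, Asb14 and Asb15 lay at 28, 27.3 and 27 CPM per kb and did not differ beyond their spread between libraries. Asb11 lay at 19.5, Asb12 at 13.8, Asb18 at 9.1 and Asb4 at 3.43 CPM per kb, here above Asb1, Asb7 and Asb6.

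The summed level of all 18 Asb genes was 421 ± 32.3 CPM per kb in gastrocnemius knockout libraries and 504 ± 24.7 in gastrocnemius control libraries (SD, n = 4 and 5). The highest knockout library, at 452, lay below the lowest control library, at 467. In soleus the sum was 307 ± 34 CPM per kb in knockout libraries and 315 ± 25.3 in control libraries, and the libraries overlapped. Asb2 gave 44.6 ± 1.05% of the sum in gastrocnemius knockout libraries and 41.6 ± 2.72% in gastrocnemius control libraries, against 33.5 ± 1.87% in soleus knockout and 33.2 ± 2.45% in soleus control libraries.

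**Figure D1:**
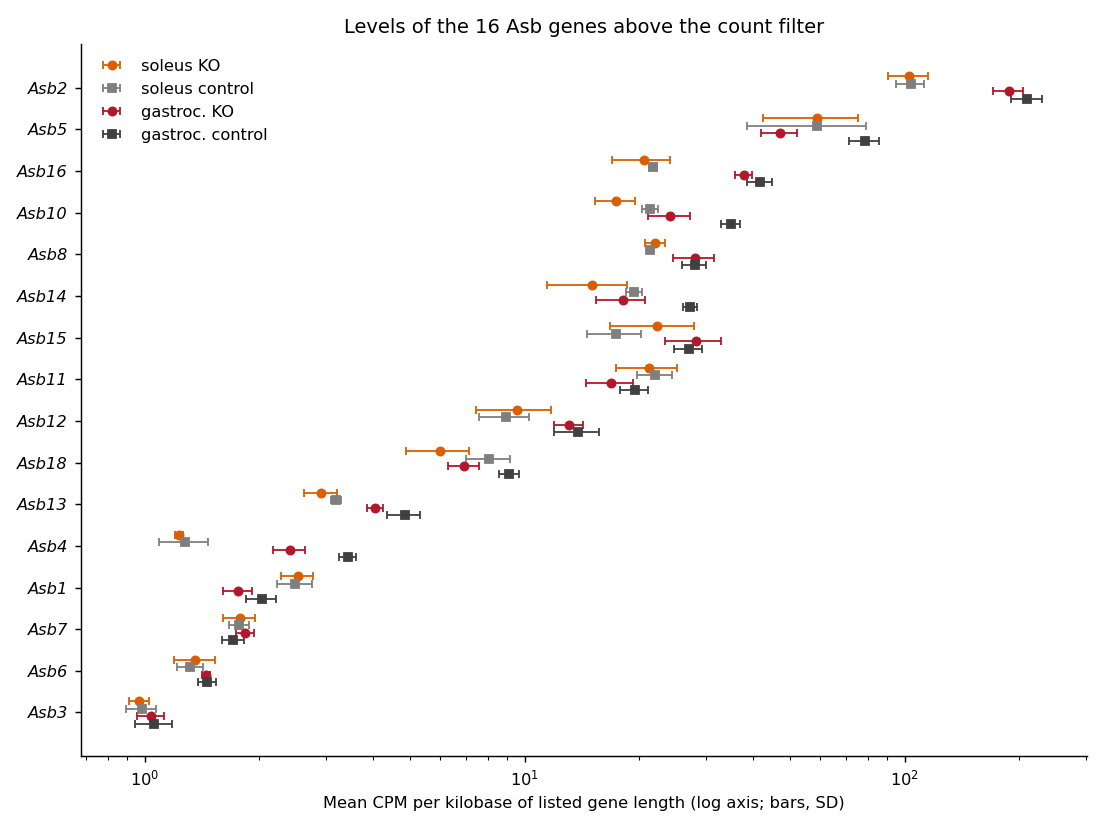
Levels of the 16 Asb genes above the count filter in each group, as CPM per kilobase of exon on a log axis. Points are group means, with bars of 1 SD over 4 knockout or 5 control libraries. Asb9 and Asb17 are not drawn. Asb2 was the highest in all 4 groups, at 103 to 210 CPM per kb, followed by Asb5 at 47.1 to 78.6.

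Asb9 and Asb17 were near the detection limit. Asb9 lies 47.2 kb from Asb11 on chromosome X, its nearest Asb neighbour there. Asb11 averaged 63 CPM in soleus control and 55.6 CPM in gastrocnemius control libraries, whereas Asb9 had 0 counts in all 10 control libraries, where 3 counts would be 0.0384 to 0.0769 CPM. In knockout libraries Asb9 had 7 counts in all in soleus and 4 in all in gastrocnemius. Asb17 had at most 7 counts in any library, and both genes were below the count filter. Of the 10 members, 3 overlapped another annotated gene on the other strand. In Asb12, 264 exon bases were shared with a gene that averaged 0.1 counts per library. The genes within Asb2 and Asb5 shared 0 exon bases with them. Among the other Asb genes, Asb3 overlapped the gene Chac2, also with 0 shared exon bases.

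The first comparison asked what the loss of Site-1 Protease in fibres did to the members in gastrocnemius, a mostly fast muscle. Of the 10 members, 5 were lower and 0 higher at an adjusted p under 0.05 (edgeR quasi-likelihood test, Benjamini-Hochberg over 16393 genes), where 2.01% of all tested genes were lower and 1.77% higher. The 5 were lower by 23.6 to 40.0%. The median log2 fold change was -0.30 over the 10 members, -0.09 over the 6 tested genes of the other 8 Asb genes and 0.02 over all tested genes. Of those 6 other Asb genes, edgeR, DESeq2 and limma voom each called 0, and 1 had an unadjusted p under 0.05, as did 18.6% of all tested genes. In bulk muscle, fewer fibres that transcribe a gene and less RNA per fibre cannot be told apart.

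Asb5 had the steepest decline. It measured 83.9, 74.7, 64 and 74.9 CPM in gastrocnemius knockout libraries 2, 6, 7 and 9, and 131, 105, 127, 133 and 125 CPM in gastrocnemius control libraries 1, 3, 4, 5 and 8. Every knockout library was below every control library, and control library 3 was the lowest of its group. Asb5 was lower by 0.74 on the log2 scale (log2 fold change -0.74, SE 0.09, edgeR adjusted p = 0.00118), a fall of 40.0%. In the fit over all 18 libraries, whose spread includes that of soleus, the same fold change had SE 0.21 and an edgeR adjusted p of 0.0651.

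Asb14 measured 53, 49.6, 37.2 and 45 CPM in knockout libraries 2, 6, 7 and 9, and 71.7, 70.2, 64.5, 71.6 and 70.5 CPM in control libraries 1, 3, 4, 5 and 8. The groups did not overlap, and knockout library 7 was the lowest. The log2 fold change was -0.59 (SE 0.09, edgeR adjusted p = 0.00389), or 33.6% lower. Asb10 measured 69.4, 66.7, 57.1 and 78.3 CPM in the knockout libraries and 92.8, 91.9, 98.9, 105 and 101 CPM in the control libraries, in the same order. Its groups did not overlap either, with a log2 fold change of -0.53 (SE 0.08, edgeR adjusted p = 0.00484).

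Asb4 is a low-level member with 251 to 609 counts per library. It measured 10.6, 9.88, 8.69 and 8.8 CPM in knockout libraries and 13.1, 13.9, 13.2, 14.5 and 12.8 CPM in control libraries. All knockout values were below all control values (log2 fold change -0.50, SE 0.09, edgeR adjusted p = 0.00899). Asb18, which carries the E-box and the MEF2 match shown above, measured 25.4, 30.1, 25.1 and 29.2 CPM in knockout libraries. In control libraries it measured 38.7, 34, 33.6, 37.3 and 36.2 CPM. It had the smallest decline of the 5, 23.6%, again without overlap (log2 fold change -0.39, SE 0.08, edgeR adjusted p = 0.0151). Groups that did not overlap, with all knockout libraries lower, were found for 4.6% of all tested genes. Among the other Asb genes, Asb13 also had no overlap, at 13.6 ± 0.666 CPM in knockout and 16.2 ± 1.6 CPM in control libraries (SD, n = 4 and 5), but it did not pass the test (edgeR adjusted p = 0.135).

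**Figure D2:**
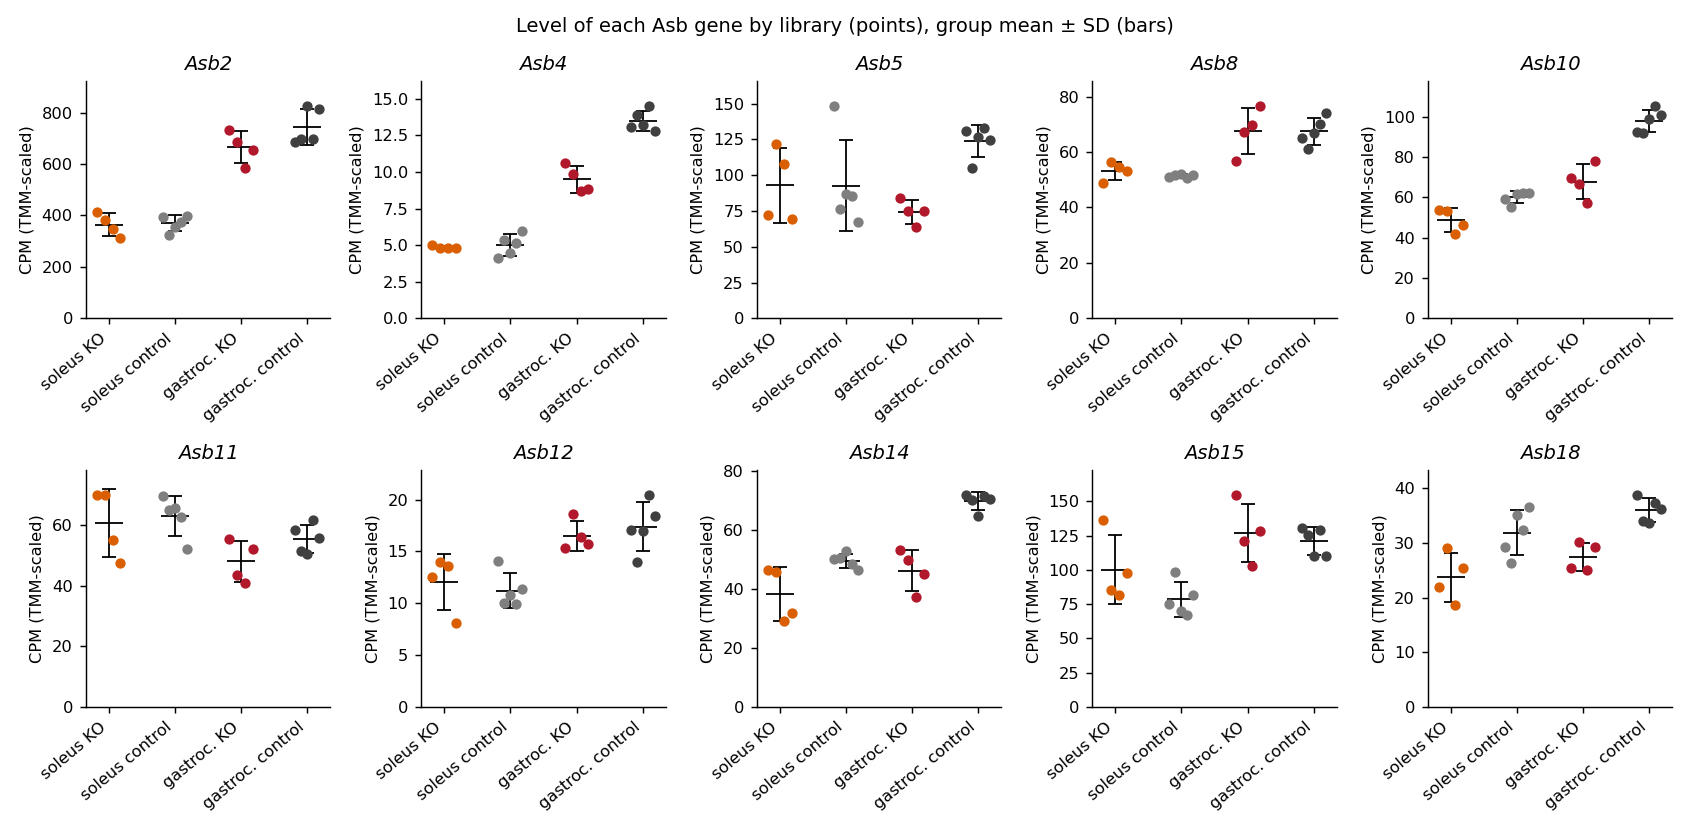
CPM of each of the 10 members in every library (points), with group means and bars of 1 SD, for soleus knockout (n = 4), soleus control (n = 5), gastrocnemius knockout (n = 4) and gastrocnemius control (n = 5). Asb4, Asb5, Asb10, Asb14 and Asb18 had all gastrocnemius knockout libraries below all gastrocnemius control libraries.

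The other 5 members did not pass the test in gastrocnemius, and their groups overlapped. Asb2, the most abundant, measured 734, 685, 586 and 657 CPM in knockout libraries and 685, 699, 824, 696 and 813 CPM in control libraries. Library 2 of the knockouts lay above 3 of the 5 controls, and the log2 fold change was -0.16 (SE 0.09, edgeR adjusted p = 0.348). Asb11 was at 48 ± 6.79 CPM in knockout and 55.6 ± 4.65 CPM in control libraries (SD, n = 4 and 5; log2 fold change -0.21, edgeR adjusted p = 0.246). Asb12 was at 16.5 ± 1.46 CPM in knockout and 17.4 ± 2.35 CPM in control libraries, with a log2 fold change of -0.07. Asb15 was at 127 ± 21.3 CPM in knockout and 121 ± 10.1 CPM in control libraries, with a log2 fold change of 0.07. Asb8 had the same mean in both groups, 67.5 ± 8.24 CPM in knockout and 67.5 ± 4.97 CPM in control libraries. A p that misses the threshold does not show that these 5 were equal between genotypes.

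Knockout library 7 was the lowest of the gastrocnemius knockout libraries for 8 of the 10 members, all but Asb8 and Asb12, and it stood apart in other genes. The summed CPM of 10 denervation genes was 636 there, against 404 to 492 in the other 3 knockout libraries and 363 to 486 in control libraries. The 7 macrophage markers summed to 183 there and to 102 to 110 in the other knockout libraries, against 80.9 to 113 in control libraries. The 5 fibroblast markers summed to 4035 there and to 2431 to 2687 in the other knockout libraries, against 1812 to 3040 in control libraries. The 6 skeletal muscle fibre genes had their lowest sum there, at 127905. It was 150704 to 180255 in the other knockout libraries and 142854 to 180425 in control libraries. Ttn, among these 6, weighed heavily in that sum. It took 6.76% of counts in library 7, 8.97 to 12.56% in the other knockout libraries and 7.25 to 12.08% in control libraries. The sum without Ttn is not given, so a lower level of fibre genes as a set is not read from it. Without library 7 the log2 fold changes were -0.46 for Asb4, -0.67 for Asb5, -0.45 for Asb10, -0.50 for Asb14 and -0.35 for Asb18, and edgeR adjusted p-values were 0.00121 to 0.0426. Over all single removals of a library, edgeR adjusted p-values of the 5 stayed between 0.000308 and 0.0485.

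Over all gastrocnemius libraries, 5 of 10 denervation genes rose in knockout, as did 1.77% of all tested genes. This list, like the others below, was chosen with earlier results of these data known, so its count is only a description. The median log2 fold change was 0.94 over the 10, and the count was 3 in the fit over all 18 libraries. Among the 5 were Chrng, which encodes the fetal acetylcholine receptor subunit, and Sln, which encodes sarcolipin. Of 8 fast fibre genes 0 passed by edgeR, with a median of -0.18 and a summed level of 119869 to 131614 CPM in knockout and 124797 to 146267 CPM in control libraries. Of 8 slow fibre genes 1 was lower (Myl2; 3 by DESeq2, and 0 by edgeR without knockout library 7), with a median of -0.75 and a summed level of 391 to 864 CPM in knockout and 852 to 1343 CPM in control libraries. Of 7 macrophage and 5 fibroblast markers 0 passed, with medians of 0.60 and 0.36. The 6 skeletal muscle fibre genes had 0 called, with a median of -0.13. Of 9 satellite cell genes, Pax7 was higher and Cdh15 lower. The 8 endothelial, 6 smooth muscle, 5 Schwann cell and 4 adipocyte markers had 0 called, with medians of 0.18, -0.11, -0.23 and -0.44. No marker was at 0 in every library. The part of these genes in the lower Asb levels was not tested.

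In soleus, a muscle rich in slow fibres, none of the 10 members passed the test, with 0 called by edgeR, by DESeq2 and by limma voom. The test called 0.0553% of all 18087 genes by edgeR. At an unadjusted p under 0.05 there were 4 of 10 members, against 8.19% of all genes. The median log2 fold change was -0.03 over the members, 0.00 over the 6 tested other Asb genes and -0.00 over all genes. Asb10 measured 53.7, 53.3, 41.7 and 46.3 CPM in soleus knockout libraries 35, 39, 40 and 42, and 59.1, 55.3, 61.7, 62.1 and 62.1 CPM in soleus control libraries 34, 36, 37, 38 and 41. The groups did not overlap, as was the case with knockout libraries lower for 1.34% of all genes. The log2 fold change was -0.29 (SE 0.08, edgeR adjusted p = 0.325).

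Asb14 measured 46.3, 45.8, 29.2 and 31.7 CPM in soleus knockout libraries and 50.1, 50.3, 52.7, 48.3 and 46.4 CPM in soleus control libraries. The highest knockout library lay just below the lowest control library (log2 fold change -0.36, SE 0.13, edgeR adjusted p = 0.482). Asb18 measured 21.9, 29, 18.6 and 25.3 CPM in knockout libraries and 29.2, 26.3, 35.1, 32.4 and 36.5 CPM in control libraries. These overlapped in knockout library 39 alone (log2 fold change -0.42, SE 0.13, edgeR adjusted p = 0.401). Asb15 measured 136, 85.1, 81.8 and 98 CPM in knockout libraries and 74.9, 98.6, 70, 66.9 and 81.7 CPM in control libraries. Knockout library 35 stood highest and the groups overlapped (log2 fold change 0.37, SE 0.16, edgeR adjusted p = 0.602).

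Asb5 spread widely in soleus, at 72.4, 122, 108 and 69.4 CPM in knockout libraries and 148, 76.5, 86.9, 85.2 and 67.4 CPM in control libraries. Neither group was the higher one (log2 fold change 0.01, SE 0.26, edgeR adjusted p = 0.998). Asb4 was at 4.84 ± 0.116 CPM in knockout and 5.02 ± 0.741 CPM in control libraries (SD, n = 4 and 5). Asb2 was at 364 ± 44 CPM in knockout and 370 ± 31.3 CPM in control libraries, and Asb8 at 53.2 ± 3.2 CPM in knockout and 51.5 ± 0.546 CPM in control libraries. Asb11 was at 60.7 ± 11.2 CPM in knockout and 63 ± 6.54 CPM in control libraries, and Asb12 at 12 ± 2.67 CPM in knockout and 11.2 ± 1.69 CPM in control libraries. All 4 overlapped between genotypes, as did Asb4. Knockout libraries 40 and 42 were the lowest of their group in Asb2, Asb10, Asb11 and Asb14. The 10 denervation genes summed to 444 CPM in each of these and to 174 and 161 CPM in knockout libraries 35 and 39. In soleus control libraries they summed to 146 to 168 CPM. The 6 skeletal muscle fibre genes summed to 137339 and 144542 CPM in libraries 40 and 42, and to 167692 and 165438 CPM in 35 and 39. Their sum was 162053 to 173681 CPM in control libraries. Ttn again weighed heavily in the sum. It took 11.87 and 13.22% of counts in libraries 40 and 42, 14.65 and 13.65% in 35 and 39, and 14.26 to 15.06% in control libraries. The sum without Ttn is not given. The 5 fibroblast markers summed to 2300 and 1836 CPM in 40 and 42, and to 1229 and 1052 CPM in 35 and 39. Their sum was 960 to 1535 CPM in control libraries. Without library 40 the log2 fold change of Asb14 was -0.26, and without library 42 it was -0.29. The 8 slow fibre genes summed to 11986 to 18052 CPM in soleus knockout and 18468 to 22741 CPM in soleus control libraries, without overlap, with the lowest sum in knockout library 40. Of these 8, 0 passed by edgeR or limma voom and 2 by DESeq2, 7 had an unadjusted p under 0.05, and the median log2 fold change was -0.39. The 8 fast fibre genes summed to 28720 to 38127 CPM in knockout and 31560 to 36803 CPM in control libraries. The part of the denervation, muscle fibre, fibroblast and fibre type genes in the Asb levels was not tested.

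**Figure D3:**
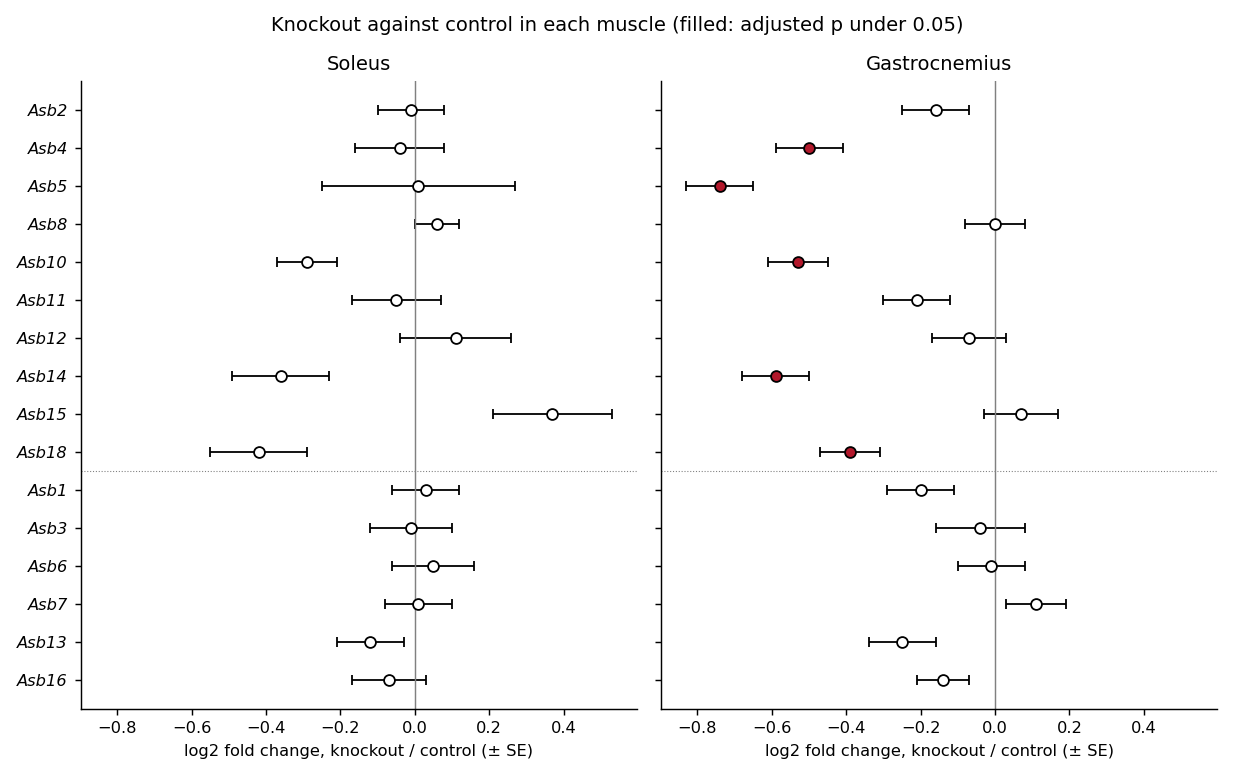
Log2 fold change, knockout over control, of the 10 members and, under the dotted line, 6 other Asb genes, in soleus and gastrocnemius (points, with bars of 1 SE; 4 knockout and 5 control libraries per muscle). Filled points had an edgeR adjusted p under 0.05, which 5 members in gastrocnemius and 0 genes in soleus had.

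The knockout effects of the 2 muscles were then set against each other in one fit over 18 libraries. The difference, soleus minus gastrocnemius, passed the test for 0 of 10 members by edgeR, by DESeq2 and by limma voom, where 0.0703% of all genes passed by edgeR. At an unadjusted p under 0.05, which 5.4% of all genes met, there were 2 of 10 members, Asb4 with a difference of 0.45 (SE 0.15, edgeR adjusted p = 0.565) and Asb5 with 0.74 (SE 0.29, edgeR adjusted p = 0.814). The differences for Asb10 and Asb14 were 0.23 (SE 0.12) and 0.22 (SE 0.17), and that for Asb18 was -0.04 (SE 0.15). The calls in gastrocnemius and their absence in soleus were thus not shown to differ.

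The muscles themselves were compared within each genotype. In control mice, 7 of 10 members were lower in soleus than in gastrocnemius (Asb2, Asb4, Asb8, Asb10, Asb12, Asb14 and Asb15) and 0 were higher, where 21.9% of 18494 tested genes were lower and 27.4% higher. The median log2 difference was -0.57 over the members, -0.14 over the 6 tested other Asb genes and 0.08 over all genes. Scaling by library totals alone moved that median of all genes to 0.35. Asb4 was at 5.02 ± 0.741 CPM in soleus control and 13.5 ± 0.684 CPM in gastrocnemius control libraries (SD, n = 5 each). The ranges were 4.12 to 5.99 and 12.8 to 14.5 CPM and lay far apart (log2 difference -1.44, SE 0.10, edgeR adjusted p = 5.89e-11). Asb2 was at 370 ± 31.3 CPM in soleus control and 743 ± 69.3 CPM in gastrocnemius control libraries, also without overlap (log2 difference -1.02, SE 0.09, edgeR adjusted p = 3.48e-09).

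Asb10 was at 60.1 ± 2.93 CPM in soleus control and 97.9 ± 5.59 CPM in gastrocnemius control libraries (log2 difference -0.72, edgeR adjusted p = 1.88e-07). Asb12 and Asb15 each differed by -0.64, Asb14 by -0.50 and Asb8 by -0.40 on the log2 scale, with edgeR adjusted p-values of 4.85e-05 to 0.000891. The libraries of Asb12 overlapped. The call for Asb8 was lost when only library totals were used for scaling (edgeR adjusted p = 0.111). Asb5 (log2 difference -0.43, SE 0.19, edgeR adjusted p = 0.0773) missed the threshold, and soleus control library 34, at 148 CPM, lay above all gastrocnemius control libraries. Without that library the log2 difference was -0.66 (edgeR adjusted p = 0.00107). With all libraries, DESeq2 (-0.47, adjusted p = 0.0187) and limma voom (-0.48, adjusted p = 0.044) both called Asb5 lower, so that 8 of 10 members were lower by those tools. They called 9481 and 9217 of all genes in either direction, against 9122 by edgeR. Asb11 (log2 difference 0.17, edgeR adjusted p = 0.201) and Asb18 (-0.19, edgeR adjusted p = 0.135) did not pass, and with library totals alone Asb11 was higher in soleus (log2 difference 0.43, edgeR adjusted p = 0.000828) while the value of Asb18 changed sign to 0.08. Among the other Asb genes, Asb1 was higher in soleus (0.28), and Asb13 (-0.61) and Asb16 (-0.95) were lower.

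In knockout mice, 5 of 10 members were lower in soleus (Asb2, Asb4, Asb8, Asb10 and Asb12) and 1 was higher (Asb11), where 18.5% of all genes were lower and 19.2% higher. The median over the members was -0.35, against 0.03 over all genes. Asb4 was at 4.84 ± 0.116 CPM in soleus knockout and 9.49 ± 0.914 CPM in gastrocnemius knockout libraries (SD, n = 4 each; log2 difference -0.98, SE 0.11, edgeR adjusted p = 2.62e-07). Asb2 was at 364 ± 44 CPM in soleus knockout and 665 ± 61.7 CPM in gastrocnemius knockout libraries (log2 difference -0.88, SE 0.10, edgeR adjusted p = 3.31e-07). Asb11 was higher by 0.33 (SE 0.12, edgeR adjusted p = 0.0371), at 60.7 ± 11.2 CPM in soleus knockout and 48 ± 6.79 CPM in gastrocnemius knockout libraries. Its call was lost without gastrocnemius knockout library 6 or 7 or soleus knockout library 35 or 39 (edgeR adjusted p from 0.105 to 0.138). Asb12 (-0.47, edgeR adjusted p = 0.0159) lost its call without gastrocnemius knockout library 6 or soleus knockout library 42, at 0.0522 and 0.0527. With library totals alone Asb12 and Asb8 lost their calls too, at 0.159 and 0.245, and Asb5 was called higher in soleus (log2 difference 0.54, edgeR adjusted p = 0.0435). That scaling gave 3 members lower and 2 higher. It called 8090 of all genes in either direction, against 6987 with TMM scaling, and moved the median of all genes to 0.27. Asb14 (-0.28, edgeR adjusted p = 0.0846) and Asb15 (-0.35, edgeR adjusted p = 0.0865) did not pass, and both passed without gastrocnemius knockout library 7 or soleus knockout library 35, with edgeR adjusted p-values of 0.00279 to 0.0406. Asb14 also passed without soleus knockout library 39 (0.0287), as did Asb18 (0.027). The control and knockout comparisons contrast different libraries, but both came from one fit over all 18 libraries. They share its scaling and its estimate of spread.

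The Asb adaptors need the Cullin-5 ligase, and 17 genes of it and of its activation were listed beside them. In knockout gastrocnemius 3 of the 17 were lower and 0 higher, with a median log2 fold change of -0.10. Of all tested genes, 2.01% were lower and 1.77% higher. These counts describe a list chosen with earlier results of these data known. Elob, the Elongin B gene, was at 69.5 ± 5.95 CPM in knockout and 89.4 ± 8.56 CPM in control libraries (log2 fold change -0.36, SE 0.08, edgeR adjusted p = 0.0276). Ube2d3, which encodes a ubiquitin-conjugating enzyme, was at 156 ± 4.73 CPM in knockout and 191 ± 12.3 CPM in control libraries (log2 fold change -0.29, SE 0.06, edgeR adjusted p = 0.0232). Arih2, which encodes the partner ligase of neddylated Cullin-5, was at 42.6 ± 2.24 CPM in knockout and 52 ± 3.29 CPM in control libraries (log2 fold change -0.28, SE 0.07, edgeR adjusted p = 0.0336; SD, n = 4 and 5 for all 3). The core genes Cul5 (-0.21, edgeR adjusted p = 0.0942), Eloc (-0.19, 0.3) and Rnf7 (-0.15, 0.354) did not pass. The 3 calls depended on single libraries and on the scaling: 0 of the 17 passed with library totals alone, or without control library 1, 5 or 8 or knockout library 6, and 1 passed without knockout library 7 or 9.

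In knockout soleus 0 of the 17 passed by edgeR, DESeq2 or limma voom, with a median of -0.03 and 0 at an unadjusted p under 0.05 by edgeR. Between muscles of control mice, 21.9% of all tested genes were lower in soleus and 27.4% higher. Of the 17 genes, 12 were lower and 3 higher, with a median log2 difference of -0.33. Among those lower were Elob by -1.04, Eloc by -0.55, Cul5 by -0.33 and Rnf7 by -0.19, and Ube2d1, another conjugating enzyme gene, by -1.67 on the log2 scale. In knockout mice 10 of the 17 were lower in soleus and 3 higher, against 18.5% and 19.2% of all tested genes.

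**Figure D4:**
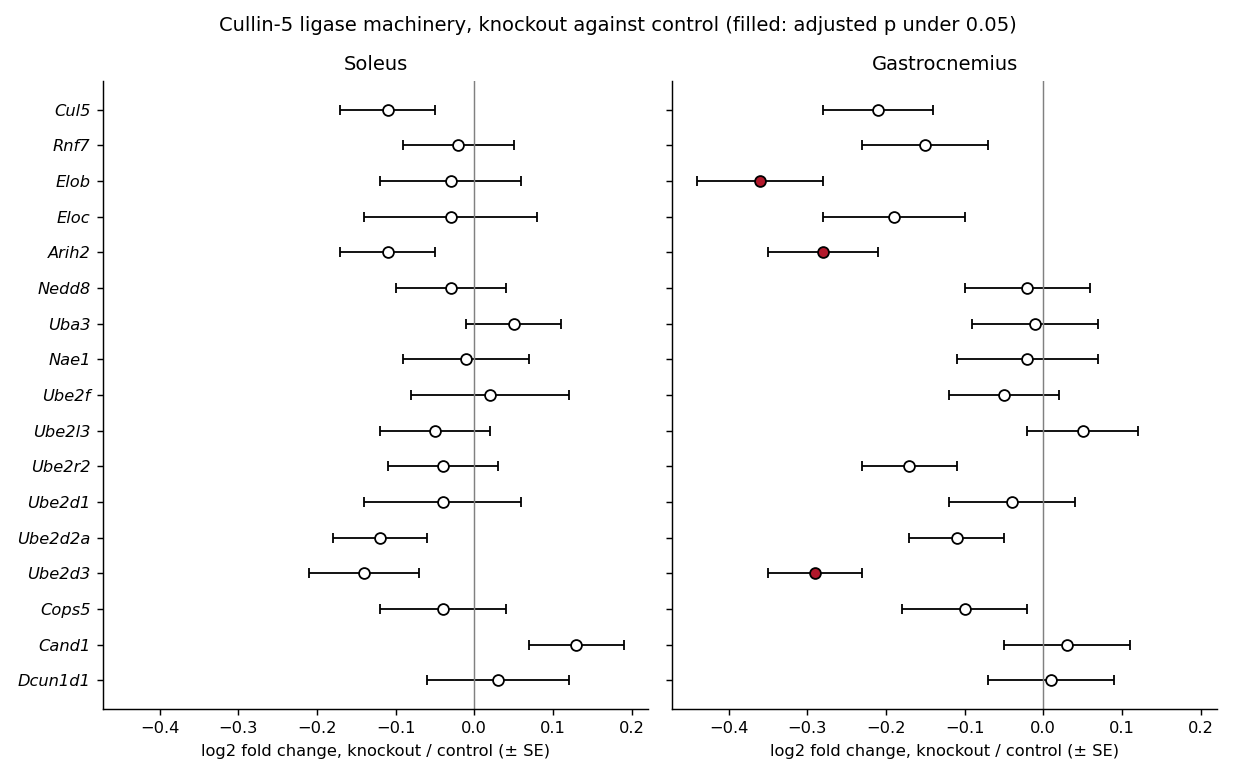
Log2 fold change, knockout over control, of 17 genes of the Cullin-5 ligase and its activation in soleus and gastrocnemius (points, with bars of 1 SE; 4 knockout and 5 control libraries per muscle). Filled points had an edgeR adjusted p under 0.05: Elob, Arih2 and Ube2d3 in gastrocnemius and 0 genes in soleus.

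Other lists of ligase genes and targets were counted in knockout gastrocnemius, where 2.01% of all tested genes were lower and 1.77% higher. Of 23 genes listed for SOCS box proteins and other ligase adaptors, 1 was lower, with a median of 0.07. It was Fem1a, at 465 ± 10.6 CPM in knockout and 555 ± 28.3 CPM in control libraries (edgeR adjusted p = 0.0353). Of 15 tested genes for reported Asb targets and partners, 1 was lower (Rpn1, at 43.2 ± 3.66 CPM in knockout and 52.5 ± 1.44 CPM in control libraries, edgeR adjusted p = 0.0343), with a median of 0.07. The Asb2 targets desmin (Des, log2 fold change 0.01, edgeR adjusted p = 0.959) and filamin C (Flnc, -0.05, edgeR adjusted p = 0.948) did not pass. The calls for Fem1a and Rpn1 were each lost in 7 of 9 single removals of a library, with edgeR adjusted p-values up to 0.0927 and 0.119. Of 14 other muscle ubiquitin ligase genes 0 passed by edgeR, with a median of -0.11.

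The myostatin and activin list covers the pathway upstream of muscle mass in which Asb2 was placed by work in mice. It had 2 of 15 lower in knockout gastrocnemius, against 2.01% of all tested genes. This list too was chosen with earlier results of these data known, and the count is only a description. Myostatin (Mstn) was at 41.3 ± 9.46 CPM in knockout and 85.7 ± 13.1 CPM in control libraries (log2 fold change -1.05, SE 0.17, edgeR adjusted p = 0.0115). Gdf11, a closely related ligand gene, was at 12.4 ± 2.95 CPM in knockout and 20.2 ± 1.56 CPM in control libraries (log2 fold change -0.69, SE 0.14, edgeR adjusted p = 0.0173), and its call was lost without knockout library 6, at 0.0649. In soleus 0 of these lists' genes passed by edgeR in knockout against control.

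Finally, the members were compared with each other and with all genes by how they varied within groups. Each gene's log2(CPM + 0.5) was taken as its deviation from the group mean over the 18 libraries, which share depth and scaling, and the correlations are descriptions. Over the 45 pairs of members, Pearson's r was between -0.52 and 0.77, with a median of 0.17. Asb11 and Asb14 varied most alike (0.77), followed by Asb5 with Asb12 and Asb10 with Asb14 (0.67 each). Asb8 and Asb15 varied in opposite directions (-0.52), as did Asb4 and Asb5 (-0.48). For the latter pair, soleus control library 34 was the highest of its group in Asb5 (148 CPM) and the lowest in Asb4 (4.12 CPM). Among gastrocnemius knockout libraries, both Asb4 and Asb5 were instead highest in library 2 and lowest in library 7. Among 13077 genes, the nearest to Asb11 was Fam135a (0.96), to Asb8 Acsl4 (0.92), to Asb10 Rps6ka2 (0.91), to Asb14 Lpl (0.91) and to Asb15 Scn2b (0.91). For Asb5 it was Mtdh (0.89), for Asb18 Mmab (0.88), for Asb12 Myoz1 (0.87), for Asb2 Itpkb (0.81) and for Asb4 Slc25a27 (0.80). Each of these is the highest value among 13077 genes. How high unrelated genes reach was not computed, so no tie to a member is read from them.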

How the data were processed

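Per the submitters' processing notes, base calling used bcl2fastq, reads were aligned with STAR 2.5.1a and counted per gene with featureCounts 1.4.6-p5 (Subread) on GRCm38; the sources used here give no strand setting. Each deposited file holds, for 1 library, raw counts made by the authors beside their CPM and RPKM, both recomputed from the counts within 4.9e-10 and not used further. Of 41388 genes, 40254 (97.3%) were matched to a GENCODE symbol, and 0 rows named no gene.

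Counts were tested with edgeR 4.0.16 in R 4.3.3 (TMM scaling, genes kept by filterByExpr at a minimum count of 10 and total of 15, robust quasi-likelihood), with Benjamini-Hochberg adjustment over all tested genes and a threshold of 0.05. Knockout effects were fitted within each muscle, and muscle differences and the difference of knockout effects over all 18 libraries. DESeq2 1.42.0, limma 3.58.1, other scaling, no filter and single left-out libraries were alternatives. Levels are CPM on TMM-scaled totals. No pair of same-group libraries agreed within sampling noise (chi-square per gene at least 19.59).

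The members and lists were chosen with earlier results of these data known, so counts over them are no independent evidence. Named genes are all members, the other Asb genes, up to 6 list genes past the threshold by smallest p, and the core ligase subunits.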

Additional observations from a re-analysis of the deposited data

Results flagged for a closer look

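The highest and lowest library of each member in each group were checked for a gap to the next library that was wide against the group's range (Dixon's criterion), which chance meets in about 1 in 20 groups. Of 40 groups, 4 met it. Asb4 was highest in soleus knockout library 35, at 5.01 CPM. Asb5 was highest in soleus control library 34, at 148 CPM, and lowest in gastrocnemius control library 3, at 105 CPM. Asb14 was lowest in gastrocnemius control library 4, at 64.5 CPM.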

How the results depend on the processing

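No paired analysis was possible because the title numbers are not shared between groups and no label ties a library to a mouse. The genotypes follow the same order over the title numbers of both muscles. Whether soleus and gastrocnemius came from the same mice is not stated, and the comparisons between muscles treat all 18 libraries as independent. Of the members' values, 139 of 150 kept direction and side of the threshold in gastrocnemius knockout against control, 137 of 150 in soleus, 224 of 230 and 214 of 230 between muscles in control and knockout mice, and 226 of 230 for the difference of knockout effects. With library totals only, 14 of 40 group levels moved by over 1 SD.

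The count of genes called in gastrocnemius was 619, and 1235 with DESeq2. It was between 206 and 1080 with 1 library left out: 1080 without knockout library 2, 211 without knockout library 6, 287 without 7 and 394 without 9, and 261, 278, 206 and 354 without control libraries 1, 4, 5 and 8. In soleus it was 10, but 166 with DESeq2, 48 with no filter, 28 in the fit over 18 libraries and 3 to 66 with 1 library left out (66 without knockout library 35, and 4 and 3 without control libraries 34 and 37). For the difference of effects it was 13, but 52 with DESeq2 and 2 to 23 with 1 library left out (23 without gastrocnemius knockout library 2, 21 without soleus knockout library 42). The cause was not tested. The counts between muscles stayed within 1.5 times.

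Values near 0 changed sign. In gastrocnemius Asb8 was 0.00, against -0.01 with DESeq2, RLE factors or no filter, -0.00 with limma voom and -0.06 to 0.07 with 1 library left out, where Asb15 was -0.05 to 0.16. In soleus, with 1 library left out, Asb2 was -0.08 to 0.05 (0.01 with library totals), Asb4 -0.11 to 0.03, Asb5 -0.14 to 0.24 and Asb11 -0.12 to 0.05. Asb18 between muscles was 0.08 in control and 0.01 in knockout mice with library totals. For the difference of effects, Asb8 was -0.02 to 0.11 and Asb18 -0.14 to 0.06 with 1 library left out. Asb9 and Asb17, with at most 7 counts in any library, were below the count filter at this depth.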
